A study of Homo sapiens with 40 samples.

Results

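The G1 cyclins and the inhibitors of the kinases that they activate were followed at the RNA level in a HER2-positive breast cancer cell line and in its trastuzumab-resistant derivative after treatment with EGF or heregulin (HRG). The set held 10 genes, found by exact name among the 44584 gene names of the deposited count table. These were the D cyclins CCND1, CCND2 and CCND3, the E cyclins CCNE1 and CCNE2, the CIP/KIP inhibitors CDKN1A and CDKN1B, and the INK4 inhibitors CDKN2B, CDKN2C and CDKN2D. BT474 is an established line from a HER2-positive human breast carcinoma. BT474R is BT474 clone 5, obtained by growing BT474 with the HER2 antibody trastuzumab, and therefore stands for 1 clone. All cells were serum starved for 14 to 16 h. T0 cells were harvested at that point, and the other cells received fresh starvation medium holding EGF (50 ng/mL), HRG (10 ng/mL) or only the water vehicle, and were harvested 1 h, 12 h or 24 h later. This gave 20 groups, 10 of each line, with 2 libraries per group and 40 in all. Per the study's methods the treatments were made in duplicate in wells of culture plates. Whether the duplicates were started on separate days or from separate passages is not given in the sources used here, so the p-values measure only the spread between these libraries.

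EGF binds EGFR and HRG binds HER3 or HER4, and the bound receptors form active dimers with HER2 that signal through the MAPK and PI3K pathways. In textbook accounts of the G1 phase, such signals raise the D cyclins, which activate CDK4 and CDK6. These kinases phosphorylate the retinoblastoma protein and release E2F factors, whose targets include the E cyclins, the partners of CDK2 at the start of DNA synthesis. INK4 proteins bind CDK4 and CDK6 and block them, whereas the CIP/KIP proteins p21, encoded by CDKN1A, and p27, encoded by CDKN1B, inhibit CDK2 complexes and also bind cyclin D complexes. Protein levels and cell cycle phase were not analysed here. In such bulk libraries, a change in the share of cells in a phase cannot be told apart from a change in RNA per cell.

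Between 16794594 and 33387936 reads per library were counted on genes, so that 1 count of a gene is a small fraction of 1 CPM (counts scaled to a common library size with TMM factors). All 10 genes passed the filter of at least 1 count in 50% of the 20 libraries of each line. CCND2 did so with no more than 8 counts in any BT474R library. Luminal epithelial markers were present in both lines, with 8 of 8 above 1 CPM on average, although GATA3 averaged 444 CPM in BT474 and 35.4 CPM in BT474R. Of the markers of other cell types, only COL1A1 of 5 fibroblast genes, CDH5 and VWF of 4 endothelial genes and CD68 of 4 leukocyte genes lay above 1 CPM. The spread between replicates was widest in HRG-BT474R and vehicle-BT474R at 24 h, where the median chi-square of a gene's counts between the libraries of a pair was 2.56 and 1.58. It was 0.676 to 1.18 over the other 8 BT474R pairs and 0.595 to 1.27 over the 10 BT474 pairs, against 0.455 for counting noise alone.

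At T0, after starvation, the lines differed in most of these genes. BT474R had less CCND1, CCND2, CDKN1B and CDKN2B RNA and more CCND3, CDKN2C and CDKN2D RNA. Of the 10 genes, 8 passed edgeR's quasi-likelihood test at 0.05 after adjusting p-values by the Benjamini-Hochberg method across the whole fit, which is the test behind every adjusted p below. Across all genes tested, 46.9% passed in this comparison, so the share of called members has a high background. CCND1, the main D cyclin of breast epithelium, was at 516 and 508 CPM in the BT474 libraries and at 292 and 288 CPM in the BT474R libraries (log2 fold change -0.82, SE 0.10, adjusted p = 3.13e-09). CDKN1B was at 93.3 and 89.3 CPM in BT474 and at 43.1 and 43.8 CPM in BT474R (-1.07, SE 0.06, adjusted p = 1.45e-17). CDKN2B, which encodes p15, was at 3.13 and 2.74 CPM in BT474 and at 0.960 and 0.889 CPM in BT474R (-1.67, SE 0.24, adjusted p = 1.71e-07). In each of these 3 genes both BT474R libraries lay below both BT474 libraries.

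The opposite order was found for CCND3, at 21.8 and 20.1 CPM in BT474 and at 34.4 and 34.0 CPM in BT474R (0.71, SE 0.08, adjusted p = 4.58e-10). CDKN2C, which encodes p18, was at 15.2 and 12.4 CPM in BT474 and at 23.0 and 21.2 CPM in BT474R (0.67, SE 0.14, adjusted p = 0.000113) and CDKN2D, which encodes p19, at 6.30 and 5.67 CPM and at 10.5 and 12.1 CPM (0.92, SE 0.19, adjusted p = 0.000129). CCNE2 was slightly lower in BT474R (-0.24, SE 0.07, adjusted p = 0.00795). CCNE1 overlapped between the lines at 7.54 and 8.17 CPM against 9.06 and 7.91 CPM (0.11, SE 0.13, adjusted p = 0.518). CDKN1A was at 7.04 and 6.80 CPM in BT474 and at 11.9 and 9.74 CPM in BT474R and did not pass (0.63, SE 0.28, adjusted p = 0.064). CCND2 had 6 and 5 counts in BT474 and 0 counts in both BT474R libraries at T0, which with 3 counts per library as the detection floor is at least 1.49-fold lower in BT474R, for counting error only.

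Per kilobase of transcript, CCND1 stood highest of the members at T0 in both lines, at 121 ± 1.26 CPM per kb in BT474 and 68.4 ± 0.671 CPM per kb in BT474R (SD, n = 2). The order below it differed. In BT474, CDKN1B followed at 37.9 ± 1.2 CPM per kb, then CDKN2C at 13.9 ± 1.94, CCND3 at 10.3 ± 0.582 and CCNE2 at 7.79 ± 0.0944 CPM per kb. In BT474R, CDKN2C came next at 22.2 ± 1.31 CPM per kb, ahead of CDKN1B at 18.0 ± 0.212 and CCND3 at 16.9 ± 0.146 CPM per kb. The neighbours whose libraries overlapped were CDKN2D and CCNE1 in BT474, at 4.20 ± 0.312 and 4.02 ± 0.227 CPM per kb, and CDKN1A and CCNE1 in BT474R, at 5.11 ± 0.717 and 4.34 ± 0.417 CPM per kb. CDKN2B and CCND2 were last in both lines.

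**Figure D1:**
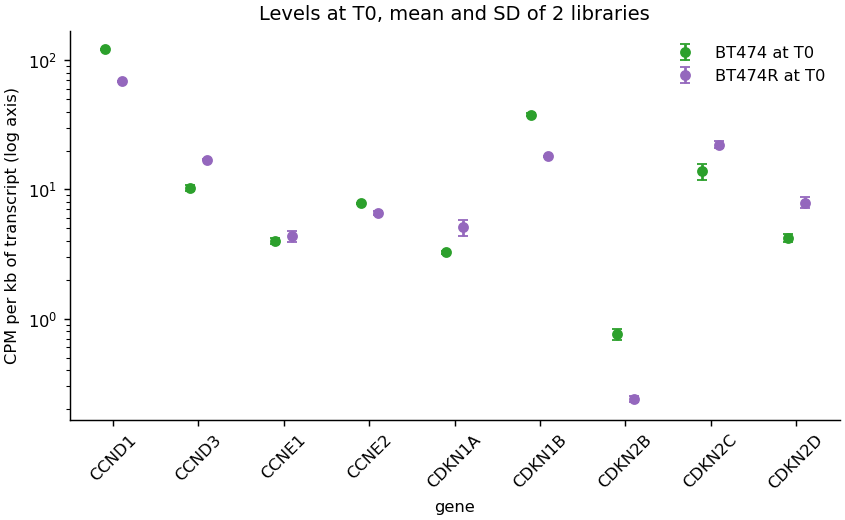
Levels of 9 members at T0 in BT474 and BT474R, as CPM per kilobase of transcript on a log axis; points are means and bars the SD of 2 libraries, and CCND2, at 0 in BT474R, is left out. CCND1 is highest in both lines, and CDKN1B and CDKN2B are lower and CCND3, CDKN2C and CDKN2D higher in BT474R.

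The stretches upstream of the transcription start are shown for 4 members that stand for the patterns described below: CDKN1A and CDKN2B, which in BT474 passed the test 1 h after the ligands, and CCND3 and CCNE1, which in BT474 passed from 12 h on. The 250 bases before the start were taken from RefSeq (GRCh38.p14), in which 7 of the 10 members matched, all 7 with a start equal to that of the MANE transcript in GENCODE. CCND1, CCND2 and CCNE2 had no entry. Letters were searched on both strands for the GC box GGGCGG, the E2F-like elements TTCCCGC and TTGGCGC, the core of the cAMP response element TGACG, the CCAAT box CCAAT and the TATA box TATAAA. These were present in 42.6%, 5.52%, 2.56%, 21.2%, 32% and 10.7% of 35116 windows of the same length. Capitals mark the matches, which are a description and not binding sites.
CDKN1A, chr6:36678464-36678713, plus strand: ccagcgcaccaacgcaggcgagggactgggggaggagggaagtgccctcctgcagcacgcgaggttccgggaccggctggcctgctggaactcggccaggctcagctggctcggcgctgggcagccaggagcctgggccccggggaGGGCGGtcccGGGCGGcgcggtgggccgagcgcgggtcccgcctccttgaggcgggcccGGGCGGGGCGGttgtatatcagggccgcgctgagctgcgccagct
CDKN2B, chr9:22009306-22009555, minus strand: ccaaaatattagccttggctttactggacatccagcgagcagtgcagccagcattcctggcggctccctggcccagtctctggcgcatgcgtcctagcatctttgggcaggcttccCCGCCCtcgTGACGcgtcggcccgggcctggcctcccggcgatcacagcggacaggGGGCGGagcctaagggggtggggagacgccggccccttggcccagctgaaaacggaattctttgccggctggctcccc
CCND3, chr6:41941809-41942058, minus strand: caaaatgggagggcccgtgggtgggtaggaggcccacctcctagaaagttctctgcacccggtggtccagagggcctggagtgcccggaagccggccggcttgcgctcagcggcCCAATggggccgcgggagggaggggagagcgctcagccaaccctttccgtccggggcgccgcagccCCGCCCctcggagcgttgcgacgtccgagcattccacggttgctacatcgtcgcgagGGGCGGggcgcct
CCNE1, chr19:29811741-29811990, plus strand: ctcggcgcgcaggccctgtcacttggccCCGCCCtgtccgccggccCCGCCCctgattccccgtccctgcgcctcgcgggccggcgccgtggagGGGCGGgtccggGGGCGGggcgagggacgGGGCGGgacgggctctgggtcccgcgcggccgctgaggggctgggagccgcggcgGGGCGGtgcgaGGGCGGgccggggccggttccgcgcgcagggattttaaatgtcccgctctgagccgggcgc
The 4 windows held GC boxes, with 4 matches upstream of CDKN1A, 2 upstream of CDKN2B, 2 upstream of CCND3 and 7 upstream of CCNE1. The CDKN2B window also held 1 match to the cAMP response element core and the CCND3 window 1 CCAAT box. Neither E2F-like element was found in any of these 4 windows. CDKN1A lies on chromosome 6 from 36678714 to 36687332 on the plus strand and CDKN2B on chromosome 9 from 22002903 to 22009305 on the minus strand (GENCODE annotation of hg38).

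Against the vehicle of the same time point, inhibitors passed the test at 1 h and cyclins from 12 h on in BT474, with both ligands. At 1 h, 3 of 10 members rose with EGF (1.65% of all genes rose) and 3 with HRG (2.16% of all genes), in both cases CDKN1A, CDKN1B and CDKN2B, and no cyclin passed. At 12 h, 6 members rose with EGF (9.04% of all genes rose). With HRG, 7 rose (13.3% of all genes) and only CDKN2C fell (12.5%). At 24 h EGF raised 7 members (9.71% of all genes) and lowered CDKN2B (6.65%), and HRG likewise raised 7 (12.5%) and lowered CDKN2B (11.6%). The median log2 fold change of the members was 0.35 at 12 h after EGF and 0.47 after HRG, beside -0.03 and -0.02 over all genes. Both ligands were compared with the same vehicle libraries, so the results of EGF and HRG at a time point are not independent of each other.

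In BT474R, members passed the test after EGF at each time point, and none did after HRG. EGF raised CCNE1 at 1 h (1 of 10 members, while 0.416% of all genes rose), 4 members at 12 h (6.85% of all genes) and 6 at 24 h (9.95%), and none fell. The 4 include CCND2, at the floor with 3 and 4 counts against 0. With 1 library left out at a time, the counts were 0 at 1 h in every such fit, 2 at 12 h in every such fit, and 3 to 6 at 24 h. With HRG, 0 members passed edgeR's test at any time point, with 0.169%, 4.12% and 2.78% of all genes called in either direction in order of time. A count of 0 among 10 members is close to these shares. At each of these 3 time points 2 members had an unadjusted p under 0.05, and DESeq2 called 0. The other settings tried called none at 1 h and between 0 and 2 members at 12 h and at 24 h. Among these, the fit that let same-numbered libraries of a time point share a shift called members at 12 h and at 24 h. Without replicate 1 of HRG at 24 h, CCND1, CCND3 and CDKN1A were called (0.43, 0.37 and 0.90), and without replicate 2 of the vehicle, CCND3 and CDKN1A (0.37 and 1.10). The median member value after HRG in BT474R was 0.06, 0.17 and 0.15 on the log2 scale in the same order. A member that misses the threshold in BT474R is not shown to respond less than in BT474, since the difference is a separate test given further on. Nor is a member that passed after EGF only shown to respond less to HRG. The direct test of HRG against EGF in BT474R, also given further on, called 0 members at 1 h and at 12 h and 2 at 24 h.

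**Figure D2:**
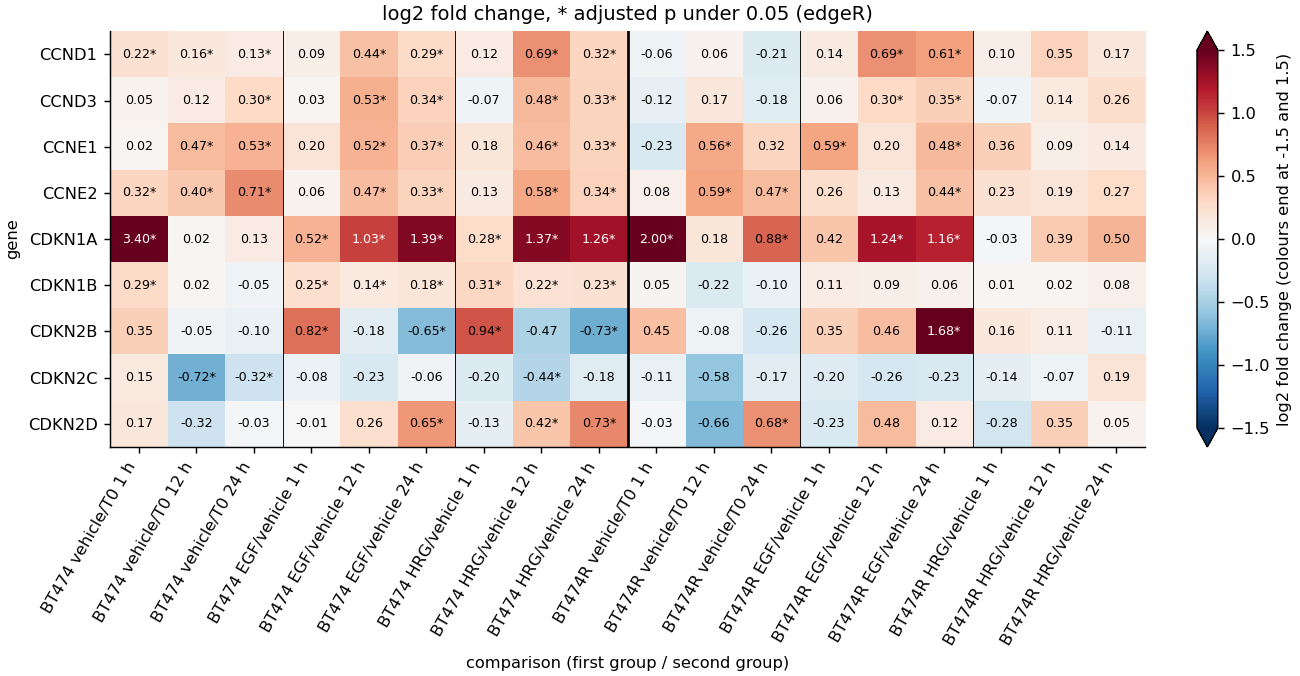
Fitted log2 fold changes of 9 members in 18 comparisons, vehicle against T0 and each ligand against the vehicle of its time point, with BT474 left and BT474R right of the heavy line; an asterisk marks an adjusted p under 0.05 (edgeR), and CCND2, with few counts, is left out. In BT474 all 4 cyclins shown carry asterisks at 12 h and 24 h after both ligands. In the ligand comparisons of BT474R, cyclins carry them only after EGF, CCNE1 at 1 h, CCND1 and CCND3 at 12 h and all 4 at 24 h.

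Among the D cyclins, CCND1 had the clearest peak. In BT474 its vehicle libraries were at 566 and 581 CPM at 12 h, those with EGF at 765 and 804 CPM and those with HRG at 952 and 934 CPM. The 3 treatments did not overlap, and CCND1 rose by 0.44 on the log2 scale with EGF (SE 0.04, adjusted p = 8.15e-11) and by 0.69 with HRG (SE 0.04, adjusted p = 1.28e-16). At 24 h it was at 648 and 726 CPM with EGF and at 690 and 726 CPM with HRG, against 553 and 563 CPM with vehicle. Both ligand groups were still above the vehicle, by 0.29 (SE 0.04, adjusted p = 5.61e-07) and 0.32 (SE 0.04, adjusted p = 4.38e-08). At 1 h the values were 0.09 with EGF and 0.12 with HRG (SE 0.04, adjusted p = 0.385 and 0.102). The effect grew between 1 h and 12 h with EGF (difference 0.35, SE 0.06, adjusted p = 3.12e-05) and likewise for HRG (0.56, SE 0.06, adjusted p = 8.21e-10), and shrank between 12 h and 24 h with HRG (-0.37, SE 0.06, adjusted p = 3.58e-05). This decrease lost its call when both lines were fitted together, and with EGF no change from 12 h to 24 h passed.

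In BT474R the CCND1 libraries with EGF were at 493 and 473 CPM at 12 h and at 357 and 404 CPM at 24 h, and those with vehicle at 276 and 325 CPM and at 226 and 272 CPM. The groups did not overlap at either time point, and CCND1 rose by 0.69 (SE 0.12, adjusted p = 0.000355) and 0.61 (SE 0.12, adjusted p = 0.000889). With HRG, CCND1 was at 368 and 405 CPM at 12 h, above both vehicle libraries (0.35, SE 0.12, adjusted p = 0.116), and was called there when both lines were fitted together (0.36). At 24 h the HRG libraries lay far apart at 223 and 333 CPM and overlapped the vehicle (0.17, SE 0.12, adjusted p = 0.572). Without replicate 1 of HRG the CCND1 value at 24 h was 0.43 and called. The highest BT474R group mean of CCND1, 483 CPM 12 h after EGF, was below the lowest group mean in BT474, 512 CPM at T0.

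CCND3, a D cyclin whose RNA was more abundant in BT474R at T0, passed no ligand comparison at 1 h in either line. In BT474 it was at 22.9 and 23.0 CPM with vehicle at 12 h, at 32.1 and 34.9 CPM with EGF and at 33.1 and 32.5 CPM with HRG. It rose by 0.53 (SE 0.07, adjusted p = 3.24e-07) and 0.48 (SE 0.07, adjusted p = 5.82e-07), and at 24 h by 0.34 and 0.33 (SE 0.07 for both, adjusted p = 0.000326 and 0.000231). The effect at 12 h was larger than at 1 h with EGF (difference 0.50, SE 0.10, adjusted p = 0.000833) and likewise for HRG (0.55, SE 0.10, adjusted p = 0.00014). In EGF-BT474R, CCND3 was at 47.0 and 47.3 CPM at 12 h against 38.5 and 38.0 CPM with vehicle. It rose by 0.30 at 12 h (SE 0.08, adjusted p = 0.0107), a call that was lost when any library of either group was left out (0.29 to 0.31), and by 0.35 at 24 h (SE 0.08, adjusted p = 0.00292), which was 0.26 and not called without replicate 1 of the vehicle. With HRG the CCND3 values in BT474R were 0.14 at 12 h and 0.26 at 24 h (SE 0.08 for both, adjusted p = 0.377 and 0.0908), the latter called without replicate 1 of HRG (0.37) or replicate 2 of the vehicle (0.37).

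CCND2, the D cyclin least abundant here, was near the detection floor except at 1 h in BT474. There it had 22 and 17 counts with vehicle, 30 and 36 with EGF and 33 and 28 with HRG, against 6 and 5 counts at T0. The vehicle group was 3.58-fold above T0 in the fit (log2 fold change 1.84, SE 0.45, adjusted p = 0.0076). DESeq2 did not call this change, and the call was lost without either T0 library or replicate 1 of the vehicle (1.55 to 2.07 over the libraries left out). Relative to this vehicle the values were 0.42 with EGF and 0.71 with HRG (SE 0.32 for both), and neither passed (adjusted p = 0.726 and 0.344). At 12 h and 24 h CCND2 was back to between 3 and 12 counts in every BT474 library. In BT474R no library exceeded 8 counts. The libraries with EGF at 12 h had 3 and 4 counts and those with vehicle 0, a difference at the floor that passed with adjusted p = 0.0497 and failed when any of these libraries was left out, with DESeq2 and with no filter on low counts.

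**Figure D3:**
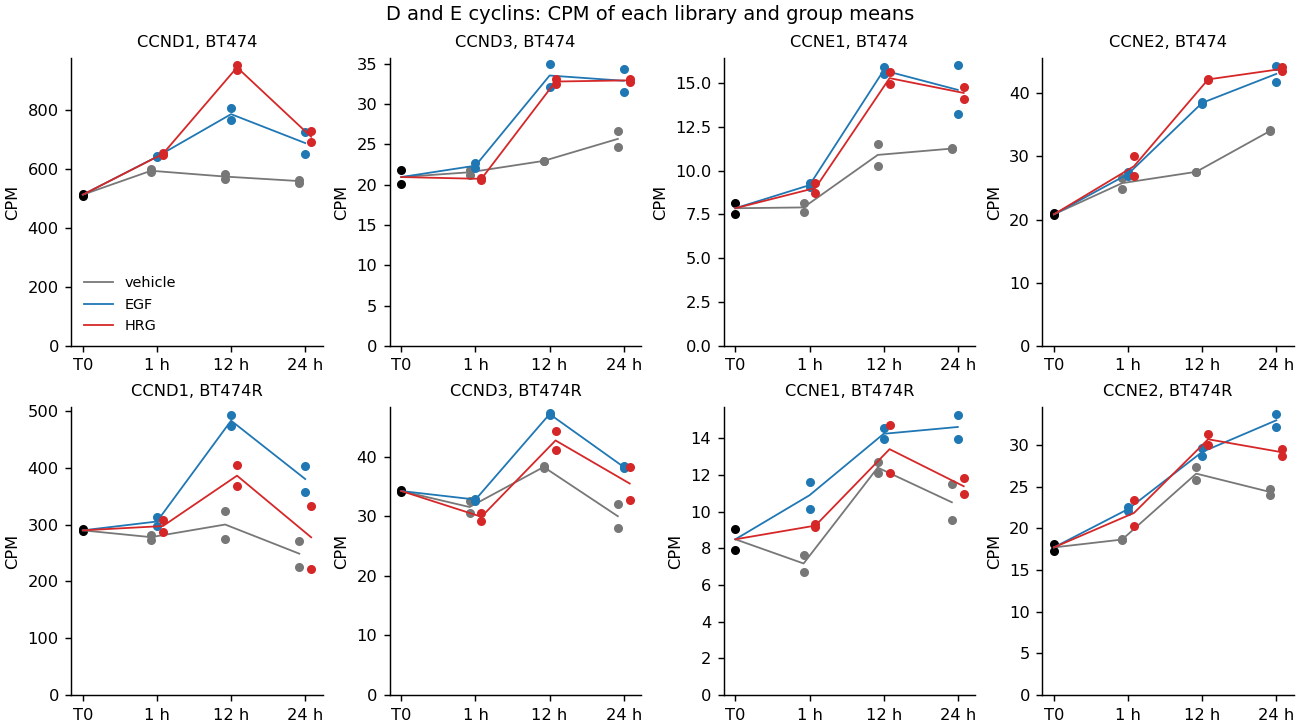
CPM of CCND1, CCND3, CCNE1 and CCNE2 at T0 and at 1 h, 12 h or 24 h in BT474 (top) and BT474R (bottom); points are libraries and lines join group means, with T0 shared by the 3 treatments. In BT474 both ligand lines run above the vehicle at 12 h and 24 h, and CCND1 peaks at 943 CPM 12 h after HRG.

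The E cyclins rose in BT474 with the vehicle alone and rose further with the ligands. CCNE1 was at 7.54 and 8.17 CPM at T0 and at 10.2 and 11.5 CPM with vehicle at 12 h (0.47, SE 0.11, adjusted p = 0.00341). It reached 15.5 and 15.9 CPM with EGF and 15.6 and 14.9 CPM with HRG at that time. Both ligand groups lay above the vehicle, with CCNE1 up by 0.52 with EGF (SE 0.10, adjusted p = 0.000122) and by 0.46 with HRG (SE 0.09, adjusted p = 0.000213). At 24 h the vehicle was at 11.2 and 11.3 CPM, EGF at 16 and 13.2 CPM and HRG at 14.1 and 14.8 CPM. The increases were 0.37 (SE 0.10, adjusted p = 0.00491) and 0.33 (SE 0.10, adjusted p = 0.00814), of which the EGF value was 0.23 and not called without replicate 1 of EGF. The rise with vehicle at 12 h lost its call without replicate 1 of T0 (0.39) or replicate 2 of the vehicle (0.38), whereas that at 24 h did not (0.53, SE 0.11, adjusted p = 0.000622).

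CCNE2 followed the same course with a narrower spread. It was at 21.0 and 20.6 CPM at T0 in BT474 and reached 27.5 and 27.6 CPM with vehicle at 12 h and 34.2 and 33.9 CPM at 24 h. It thus rose with vehicle by 0.40 (SE 0.07, adjusted p = 8.21e-05) and 0.71 (SE 0.07, adjusted p = 3.76e-10), and already at 1 h by 0.32 (SE 0.07, adjusted p = 0.00254; 0.27 and not called without replicate 2 of the vehicle). At 12 h it was at 38.7 and 38.3 CPM with EGF and at 42.1 and 42.2 CPM with HRG, and at 24 h at 41.7 and 44.4 CPM and at 43.6 and 44.1 CPM. The groups did not overlap with the vehicle, and CCNE2 rose by 0.47 with EGF (SE 0.06, adjusted p = 6.01e-07) and by 0.58 with HRG (SE 0.06, adjusted p = 1.02e-09) at 12 h, and by 0.33 and 0.34 at 24 h (SE 0.06 for both, adjusted p = 0.000108 and 2.85e-05). Between 1 h and 12 h the effect grew with EGF (0.41, SE 0.09, adjusted p = 0.00248) and HRG (0.45, SE 0.09, adjusted p = 0.00041). For CCNE1 the same differences were not called.

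In BT474R the E cyclins passed after EGF and not after HRG. Tested directly against each other in that line, HRG and EGF differed for neither E cyclin. CCNE1 was at 10.1 and 11.6 CPM 1 h after EGF and at 6.68 and 7.65 CPM with vehicle (0.59, SE 0.12, adjusted p = 0.0238), the only member called at that time. The call was lost when any of these 4 libraries was left out, with values of 0.50 to 0.70. At 12 h CCNE1 was at 13.9 and 14.5 CPM with EGF and 12.1 and 12.7 CPM with vehicle (0.20, SE 0.12, adjusted p = 0.332) and CCNE2 at 28.7 and 29.6 CPM against 27.3 and 25.8 CPM (0.13, SE 0.07, adjusted p = 0.296). At 24 h CCNE1 was at 14 and 15.3 CPM against 9.53 and 11.5 CPM (0.48, SE 0.12, adjusted p = 0.00618) and CCNE2 at 32.2 and 33.7 CPM against 24.0 and 24.6 CPM (0.44, SE 0.08, adjusted p = 0.000229). The CCNE1 call at 24 h was lost without replicate 2 of EGF (0.42) or replicate 1 of the vehicle (0.36). After HRG, CCNE2 was at 31.3 and 30.0 CPM at 12 h and at 29.6 and 28.7 CPM at 24 h, above the vehicle libraries without passing (0.19 and 0.27, adjusted p = 0.172 and 0.057). With vehicle, CCNE2 rose over T0 by 0.59 at 12 h and 0.47 at 24 h (SE 0.08 for both, adjusted p = 7.42e-05 and 0.00047), and CCNE1 by 0.56 at 12 h (SE 0.13, adjusted p = 0.0238), which no fit with a library left out called (0.46 to 0.66).

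CDKN1A, which encodes p21, had the widest range of group means among the members with more than a few counts, 15.3-fold in BT474 and 5.27-fold in BT474R, and much of it was seen with the vehicle alone. In BT474 it went from 7.04 and 6.80 CPM at T0 to 68.2 and 77.1 CPM 1 h after fresh starvation medium with vehicle, a fitted difference of 10.6-fold (log2 fold change 3.4, SE 0.10, adjusted p = 9.16e-26). By 12 h the vehicle libraries were back at 7.56 and 6.47 CPM (0.02, SE 0.13, adjusted p = 0.97). In BT474R it went from 11.9 and 9.74 CPM to 40.1 and 45.2 CPM at 1 h (2.00, SE 0.26, adjusted p = 7.96e-05) and to 10.9 and 13.1 CPM at 12 h. At 24 h the BT474R vehicle libraries were apart, at 13 and 26.7 CPM. The value of 0.88 (SE 0.28, adjusted p = 0.0432) rested on replicate 2 of the vehicle, without which it was 0.28, and the call was also lost without either T0 library. T0 cells received no fresh medium, so the effects of medium change and handling cannot be told apart from that of time in vehicle.

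The ligands added to CDKN1A at every time point in BT474. At 1 h, EGF libraries were at 113 and 99.3 CPM and HRG libraries at 89.0 and 88.3 CPM. CDKN1A rose over the vehicle by 0.52 with EGF (SE 0.07, adjusted p = 5.47e-07) and by 0.28 with HRG (SE 0.07, adjusted p = 0.0136), and the HRG call was lost without either HRG library or replicate 1 of the vehicle (0.22 to 0.38 over the libraries left out). Neither 1 h value was called when both lines were fitted together. At 12 h the libraries were at 15.6 and 13.4 CPM with EGF and at 20.7 and 16.8 CPM with HRG, and at 24 h at 19.3 and 20.7 CPM and at 17.9 and 18.8 CPM, all above the vehicle libraries of 6.47 to 8.37 CPM. CDKN1A rose by 1.03 (SE 0.12, adjusted p = 1.32e-08) and 1.37 (SE 0.11, adjusted p = 8.17e-13) at 12 h, and by 1.39 (SE 0.11, adjusted p = 1.84e-12) and 1.26 (SE 0.11, adjusted p = 1.43e-11) at 24 h. The HRG effect was 1.09 larger at 12 h than at 1 h (SE 0.13, adjusted p = 4e-08) and the EGF effect 0.51 larger (SE 0.13, adjusted p = 0.0126), the latter not called without replicate 1 of EGF or 2 of the vehicle at 12 h or without replicate 2 of either at 1 h (0.40 to 0.61 over the libraries left out). The absolute level was thus highest at 1 h, and the ratio to the vehicle was higher at 12 h.

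In EGF-BT474R, CDKN1A was at 29.6 and 27.2 CPM at 12 h against 10.9 and 13.1 CPM with vehicle, and at 40.3 and 47.1 CPM at 24 h against 13 and 26.7 CPM. No libraries overlapped and it rose by 1.24 (SE 0.26, adjusted p = 0.00217) and 1.16 (SE 0.24, adjusted p = 0.00147). The value at 24 h was 0.72 and not called without replicate 1 of the vehicle and 1.75 without replicate 2. At 1 h EGF libraries were at 62.1 and 51.8 CPM (0.42, SE 0.22, adjusted p = 0.93). HRG libraries were at 38.2 and 45.1 CPM at 1 h, 14.1 and 18.0 CPM at 12 h and 18.8 and 36.3 CPM at 24 h, with values of -0.03, 0.39 and 0.50 (SE 0.22, 0.27 and 0.25) that did not pass. The HRG value at 24 h was called when replicate 1 of HRG (0.90) or replicate 2 of the vehicle (1.10) was left out.

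CDKN1B, which encodes p27, changed by less. In BT474 it was at 114 and 108 CPM with vehicle at 1 h, at 133 and 134 CPM with EGF and at 145 and 133 CPM with HRG. It rose by 0.25 (SE 0.05, adjusted p = 0.000441) and 0.31 (SE 0.05, adjusted p = 7.17e-06). At 12 h and 24 h the EGF values were 0.14 and 0.18 and the HRG values 0.22 and 0.23 (SE 0.05 for all, adjusted p = 0.0285, 0.00609, 0.000332 and 0.000167). The EGF calls at 1 h and 24 h were lost when only the libraries compared were fitted, and that at 12 h without either EGF library or replicate 2 of the vehicle (0.10 to 0.21 over the libraries left out). Vehicle alone raised CDKN1B at 1 h by 0.29 (SE 0.05, adjusted p = 3.92e-05). In BT474R, where every group mean lay between 37.2 and 48.3 CPM, no comparison of CDKN1B with the vehicle or with T0 passed.

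**Figure D4:**
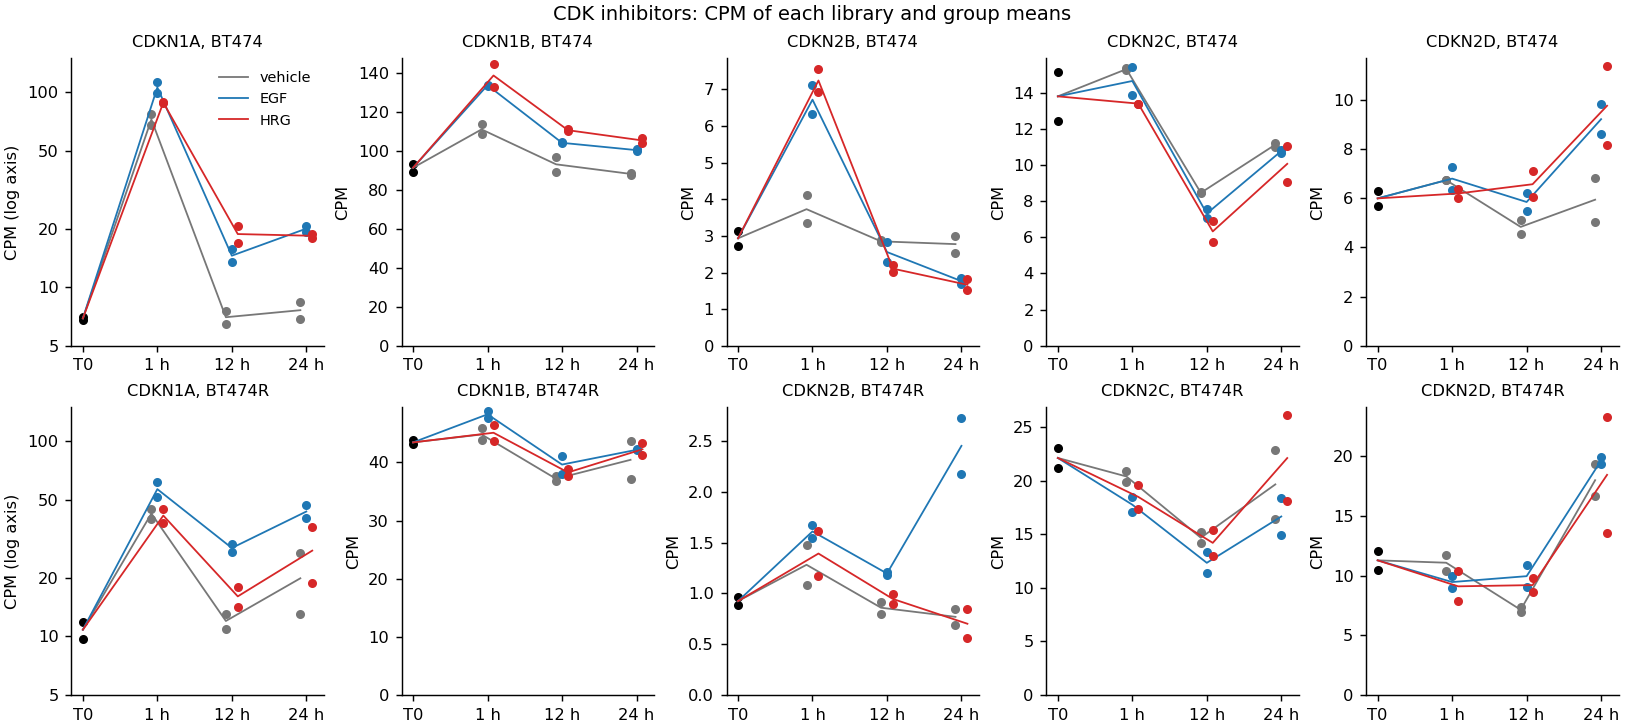
CPM of the 5 inhibitors at T0 and at 1 h, 12 h or 24 h in BT474 (top) and BT474R (bottom), with CDKN1A on a log axis; points are libraries and lines join group means. CDKN1A peaks at 1 h in all treatments, and CDKN2B peaks at 1 h after both ligands in BT474 and at 24 h after EGF in BT474R.

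Of the INK4 inhibitors, CDKN2B changed direction with time in BT474. At 1 h it was at 7.12 and 6.32 CPM with EGF and at 7.55 and 6.93 CPM with HRG, against 3.34 and 4.12 CPM with vehicle. It rose by 0.82 (SE 0.14, adjusted p = 0.000208; not called when only the libraries compared were fitted) and by 0.94 (SE 0.15, adjusted p = 2.32e-05). At 12 h EGF libraries, at 2.29 and 2.83 CPM, reached up to the vehicle libraries of 2.83 and 2.88 CPM, and HRG libraries, at 2.20 and 2.01 CPM, lay below them (-0.18, SE 0.18, and -0.47, SE 0.18, adjusted p = 0.612 and 0.0565). At 24 h it was at 1.68 and 1.86 CPM with EGF and at 1.82 and 1.52 CPM with HRG, below the vehicle libraries of 3.01 and 2.54 CPM, and fell by 0.65 (SE 0.20, adjusted p = 0.0184) and 0.73 (SE 0.20, adjusted p = 0.00444) on the log2 scale. The effect at 12 h minus that at 1 h was negative for both ligands, at -1.0 for EGF (SE 0.23, adjusted p = 0.00411) and at -1.41 for HRG (SE 0.24, adjusted p = 2.49e-05). The fall at 24 h was lost without replicate 1 of the vehicle (-0.54 with EGF, -0.61 with HRG), without replicate 1 of EGF (-0.57) or without replicate 2 of HRG (-0.61), and DESeq2 did not call it for EGF. Without replicate 1 of EGF at 12 h the change of the EGF effect was -0.84 and not called.

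In BT474R, where CDKN2B began lower, its rise with EGF passed the test only at 24 h. Its libraries were at 2.18 and 2.73 CPM 24 h after EGF and at 0.692 and 0.847 CPM with vehicle, a fitted difference of 3.20-fold (log2 1.68, SE 0.26, adjusted p = 6.98e-05). With HRG it was at 0.558 and 0.844 CPM at that time and overlapped the vehicle (-0.11, SE 0.33, adjusted p = 0.945). At 1 h and 12 h the EGF values were 0.35 and 0.46 (SE 0.24 and 0.28, adjusted p = 0.97 and 0.352), with both EGF libraries above both vehicle libraries at each time. The change of the EGF effect from 1 h to 12 h and from 12 h to 24 h was not called, so a late onset is not shown. The rise at 24 h was called in 8 of 8 alternative analyses and in 4 of 4 fits with a library left out (1.52 to 1.83). The highest BT474R mean of CDKN2B, 2.45 CPM, was below the BT474 mean of 2.94 CPM at T0.

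CDKN2C fell in BT474 with time in vehicle. It was at 15.2 and 12.4 CPM at T0, at 8.49 and 8.43 CPM at 12 h (-0.72, SE 0.11, adjusted p = 1.03e-05) and at 11.0 and 11.2 CPM at 24 h (-0.32, SE 0.11, adjusted p = 0.0444). The call at 24 h was lost with DESeq2 and without replicate 1 of T0 (-0.17) or either vehicle library (-0.30 and -0.33). HRG lowered it further at 12 h, to 5.74 and 6.91 CPM (-0.44, SE 0.12, adjusted p = 0.00531; -0.31 and not called without replicate 1 of HRG), and no EGF comparison passed. In BT474R CDKN2C was at 23.0 and 21.2 CPM at T0 and at 14.1 and 15.2 CPM with vehicle at 12 h, without passing (-0.58, SE 0.16, adjusted p = 0.0917), and no ligand effect passed.

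CDKN2D rose with both ligands at 24 h in BT474, and no change of its ligand effects between time points was called. At 24 h it was at 9.81 and 8.60 CPM with EGF and at 11.3 and 8.15 CPM with HRG, above 6.82 and 5.05 CPM with vehicle (0.65, SE 0.14, adjusted p = 0.00101, and 0.73, SE 0.14, adjusted p = 0.000107). The EGF effect was 0.44 and not called when replicate 2 of the vehicle was left out, and the HRG effect was 0.45 when replicate 1 of HRG was. At 12 h it was at 6.04 and 7.08 CPM with HRG against 5.11 and 4.55 CPM (0.42, SE 0.15, adjusted p = 0.0387), which was not called by DESeq2, nor without replicate 2 of HRG or either vehicle library (0.28 to 0.53 over the libraries left out). In BT474R CDKN2D was high at 24 h in all treatments. The vehicle was at 19.4 and 16.6 CPM against 10.5 and 12.1 CPM at T0 (0.68, SE 0.18, adjusted p = 0.0128), EGF at 20 and 19.3 CPM and HRG at 23.3 and 13.6 CPM, and the ligand groups overlapped the vehicle (0.12 and 0.05, SE 0.16 and 0.17). The vehicle call was lost without either T0 library or replicate 1 of the vehicle (0.55 to 0.77 over the libraries left out).

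Counted over all members, vehicle against T0 called 5 of 10 after 1 h, 4 after 12 h and 5 after 24 h in BT474, with 6.61%, 6.41% and 11.4% of all genes called. In BT474R it called 1, 2 and 3, with 2.24%, 1.13% and 13.7% of all genes called. The members called in both lines at the same time were CDKN1A at 1 h, CCNE1 and CCNE2 at 12 h and CCNE2 at 24 h. CCND1 rose slightly with vehicle in BT474, by 0.22, 0.16 and 0.13 in order of time (SE 0.04 for all, adjusted p = 0.000186, 0.00841 and 0.0332), and CCND3 by 0.30 at 24 h (SE 0.07, adjusted p = 0.00514). The CCND1 calls ended without either T0 library or replicate 2 of the vehicle at 12 h (0.13 to 0.18) and without any of the 4 libraries at 24 h (0.11 to 0.14), and that of CCND3 without replicate 2 of T0 (0.26) or of the vehicle (0.23).

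The change of the ligand effects with time was tested as the difference between the effects at 2 time points. From 1 h to 12 h, 5 of 10 members passed with EGF in BT474 (background 7.72%) and 5 with HRG (14.2%), namely CCND1, CCND3, CCNE2 and CDKN1A upward and CDKN2B downward in both cases. From 12 h to 24 h, only CCND1 passed with HRG, downward (background 2.5%), a call lost when both lines were fitted together. With EGF 0 members passed over that interval by edgeR (background 0.517%), with 2 at an unadjusted p under 0.05 and 0 by DESeq2. In BT474R, 0 members passed edgeR's test in any of these 4 comparisons (backgrounds 4.43% and 0.185% with EGF, 0.992% and 0.0288% with HRG). An unadjusted p under 0.05 was reached by 6 and 3 members after EGF and by 1 and 0 after HRG, and DESeq2 called 0.

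Tested directly against each other, HRG and EGF seldom differed in these genes. In BT474, 0 members passed edgeR's test at 1 h (background 0.139%) and at 24 h (0.768%), where 1 and 0 had an unadjusted p under 0.05 and DESeq2 called 0. At 12 h, 1 member passed (background 2.17%): CCND1 was 0.25 higher with HRG on the log2 scale (SE 0.04, adjusted p = 8.77e-05), a call lost only when both lines were fitted together. CDKN1A was 0.34 higher with HRG at that time and did not pass (SE 0.10, adjusted p = 0.0609; called without replicate 2 of HRG, at 0.49). In BT474R, 2 members passed at 24 h (background 5.18%), both lower with HRG. CDKN2B was at -1.79 (SE 0.27, adjusted p = 0.000142) and CCND1 at -0.44 (SE 0.12, adjusted p = 0.0324). Neither was called when only the libraries compared were fitted. The CCND1 call was lost with DESeq2, without either EGF library and without replicate 1 of HRG, where the value was -0.18, and CDKN1A was called without replicate 2 of HRG (-1.2 against -0.65). At 1 h and 12 h, 0 passed in BT474R (backgrounds 0.0494% and 1.42%), with 0 and 3 at an unadjusted p under 0.05 and 0 by DESeq2. Whether the difference between HRG and EGF was itself unlike in the 2 lines was not tested. The EGF and HRG doses differed, so the ligands were compared at these doses only.

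Whether the ligand effects differed between the lines was tested in a fit of all 40 libraries. At 24 h after EGF, 1 member passed (background 4.01%): the CDKN2B effect was 2.33 higher in BT474R than in BT474 (SE 0.31, adjusted p = 2.16e-06), with a fall of 0.65 in BT474 and a rise of 1.68 in BT474R. This difference was called in 7 of 7 alternative analyses and in 8 of 8 fits with a library left out (2.16 to 2.48). At 12 h, the CCNE2 effect was smaller in BT474R with EGF, by a difference of -0.35 (SE 0.09, adjusted p = 0.0352; 1 member, background 1.96%), and with HRG, by a difference of -0.40 (SE 0.09, adjusted p = 0.00548). The CCND3 effect of HRG at 12 h was also smaller (difference -0.36, SE 0.10, adjusted p = 0.0299), which makes 2 members for HRG at 12 h (background 4.07%). The EGF difference of CCNE2 was lost with DESeq2, with no filter on low counts and when any of the 8 libraries was left out (-0.39 to -0.32), and that of CCND3 without any of them but replicate 2 of HRG in BT474R (-0.41 to -0.30). The HRG difference of CCNE2 was lost only without replicate 1 of the BT474R vehicle (-0.36). At 1 h after either ligand and at 24 h after HRG, 0 members passed (backgrounds 0.138%, 0.544% and 3.33%), with 1, 2 and 3 at an unadjusted p under 0.05 and 0, 1 and 0 by DESeq2. CDKN1A, called after HRG in BT474 and not in BT474R, had a difference of -0.99 at 12 h that did not pass (SE 0.33, adjusted p = 0.0835). At 24 h after HRG its difference was -0.78 (SE 0.32, adjusted p = 0.211) and was called without replicate 2 of HRG (-1.33) or replicate 1 of the vehicle (-1.24) in BT474R.

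**Figure D5:**
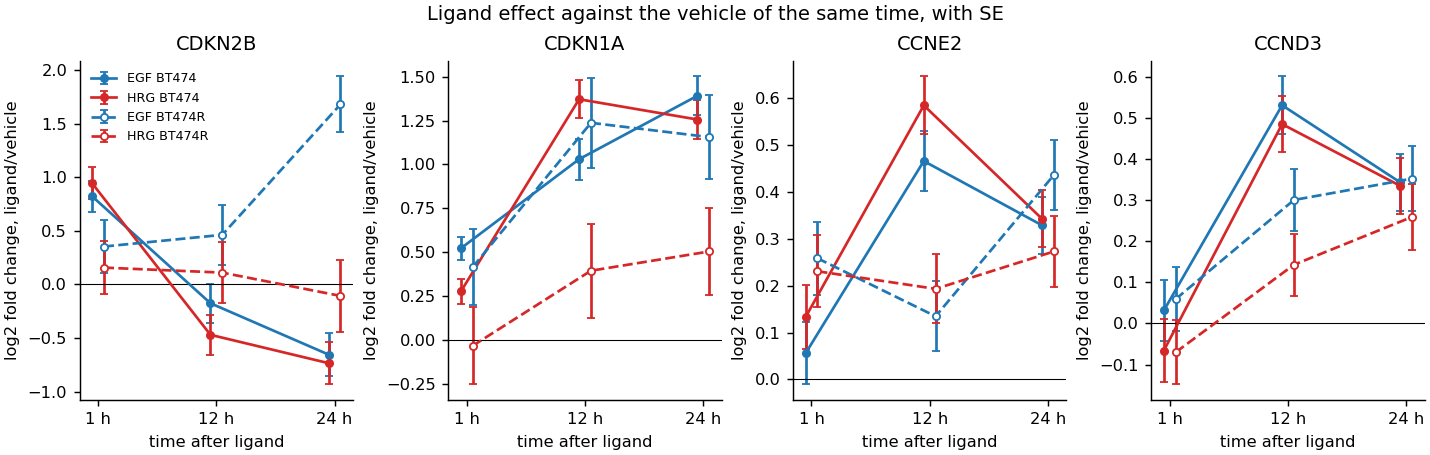
Log2 fold change of each ligand against the vehicle of its time point for CDKN2B, CDKN1A, CCNE2 and CCND3, with solid lines for BT474 and dashed lines for BT474R; bars are standard errors of the fit. The CDKN2B effect of EGF at 24 h is -0.65 in BT474 and 1.68 in BT474R, and the CCNE2 effects at 12 h are higher in BT474.

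Genes of the surrounding pathway were counted from fixed lists. None of 20 S phase entry genes passed at 1 h after either ligand in either line. At that time, 1.65% and 2.16% of all genes rose with EGF and HRG in BT474. In BT474R, 0.416% rose with EGF and 0.169% were called in either direction with HRG. A count of 0 among 20 genes is close to these shares. In BT474 at 12 h, 20 of 20 rose with EGF and 20 with HRG, with median log2 fold changes of 0.39 and 0.48, where 9.04% and 13.3% of all genes rose and the medians over all genes were -0.03 and -0.02. At 24 h, 18 rose with each ligand (9.71% and 12.5% of all genes). RRM2, a subunit of ribonucleotide reductase, rose by 0.67 and 0.82 at 12 h (SE 0.05 for both), and the replication factor MCM10 by 0.66 and 0.80 (SE 0.06 for both). In BT474R, 7 rose at 12 h and 13 at 24 h with EGF (6.85% and 9.95% of all genes), and 8 and 15 with HRG (2.38% and 1.89%), and none fell. HRG raised the replication licensing factor CDC6 by 0.39 (SE 0.10) and MCM5 by 0.41 (SE 0.11) at 12 h, and CCNA2, the cyclin of S phase and G2, by 0.42 (SE 0.08) and MCM10 by 0.42 (SE 0.08) at 24 h in BT474R, while no E cyclin passed there. The effects at 12 h were lower in BT474R than in BT474 for 9 of the 20 with EGF and 10 with HRG (1.03% and 2.91% of all genes), and higher for none. At 24 h none passed, with 4.01% (EGF) and 3.33% (HRG) of all genes called in either direction. Vehicle against T0 called 7, 6 and 20 of the 20 in BT474 in order of time (6.61%, 6.41% and 11.4% of all genes). In BT474R it called 0, 8 and 13 (2.24%, 1.13% and 13.7%). All of these rose except CCNA2, which fell at 12 h and 24 h in both lines. The medians with vehicle were 0.09 and 0.52 at 12 h and 24 h in BT474 and 0.32 and 0.30 in BT474R. The part of these changes in the lower effects at 12 h was not tested.

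Of 30 partners of the G1/S machinery, EGF raised 12 (9.04% of all genes rose) and lowered 4 (6.99% fell), and HRG raised 13 (13.3%) and lowered 5 (12.5%), in BT474 at 12 h. The share lowered with HRG was thus close to that of all genes. E2F1, an activating E2F factor, rose by 0.59 and 0.64 (SE 0.07 for both) and CDC25A, the phosphatase that activates CDK2, by 0.53 and 0.68 (SE 0.07 for both). RBL2, the retinoblastoma relative p130 of resting cells, fell by 0.54 and 0.68 (SE 0.05 for both). CDKN1C, which encodes p57, the other CIP/KIP inhibitor, averaged 1.11 CPM in BT474 and fell at 12 h, when CDKN1A and CDKN1B rose. The fall was by 0.95 after EGF (SE 0.33, adjusted p = 0.0411). HRG lowered CDKN1C by 0.86 at that time point (SE 0.31, adjusted p = 0.0338). At 24 h it fell by 0.93 with HRG (SE 0.32, adjusted p = 0.0303), and with EGF the value was -0.72 (SE 0.32, adjusted p = 0.132). At 12 h CDK2 rose by 0.29 and 0.36 (SE 0.05 for both) and CDK4 by 0.16 and 0.15 (SE 0.06 and 0.05), and RB1 did not pass. By 24 h CDK6 fell by 0.39 and 0.34 (SE 0.10 for both), E2F1 rose by 0.19 with each ligand (SE 0.07 for both), and CDK2 and CDK4 did not pass. RB1 passed at 24 h with HRG (0.15, SE 0.05) and not with EGF (0.12, SE 0.05). At 24 h EGF raised 10 (9.71% of all genes) and lowered 5 (6.65%), and HRG raised 12 (12.5%) and lowered 5 (11.6%). In BT474R at 12 h EGF raised 6 of the 30 (6.85% of all genes) and lowered 3 (5.13%), whereas HRG raised 3 (2.38%) and lowered 1 (1.73%). By 24 h in that line, 8 were up (9.95%) and 2 down (7.37%) after EGF, and 6 were up (1.89%) after HRG. There E2F1 rose by 0.29 and 0.34 (SE 0.07 for both) and RBL2 fell by 0.26 and 0.30 (SE 0.05 for both) at 12 h, and CDK6 rose by 0.33 and 0.47 (SE 0.11 and 0.10). CDK6 did not pass at 12 h in BT474 or at 24 h in BT474R, and no difference of its ligand effects between the lines was called. At 24 h in BT474R, E2F1 rose by 0.44 with EGF and 0.36 with HRG (SE 0.07 for both). CDK2, which did not pass there at 12 h, rose by 0.28 and 0.27 (SE 0.06 for both). CDK4 and RB1 passed no ligand comparison in BT474R. At 1 h, 2 of 30 rose with each ligand in BT474, E2F8 and CKS2, while 1.65% (EGF) and 2.16% (HRG) of all genes rose. None passed in BT474R, where 0.416% of all genes rose with EGF and 0.169% were called in either direction with HRG.

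Across the 20 groups, with each line's mean subtracted from the log2 CPM of the group means, the genes whose course was most like that of each member were found among 13896 genes of at least 1 CPM. The points share libraries and controls, and Pearson's r is given as a description. CCNE2 was most like CDC6 (r = 0.97), ORC1 (0.97) and MCM10 (0.96), and CCNE1 most like MCM6, MSH6 and DTL (0.94 for each), all genes of DNA replication or repair. CDKN1A was most like GDF15 (0.94), TNFRSF10B (0.94) and MAFF (0.93), and CDKN1B most like PTP4A1 (0.93), CPEB4 (0.92) and WEE1 (0.92). CCND1 was most like B3GALNT1 (0.96), RHOBTB2 (0.95) and SYTL2 (0.95), CCND3 most like ABLIM1, ASIC1 and CDCA7 (0.96 for each) and CDKN2B most like BCL10 (0.92), PLEKHO2 (0.91) and IL1RAP (0.91). CDKN2D was most like KIFC1 (0.95), FBXL19-AS1 (0.94) and SKA1 (0.94), and CDKN2C most like H1-10 (0.95), LOC105374811 (0.94) and PHGDH (0.93). For CCND2, with few counts, VPS37B (0.94), TNFRSF10B (0.93) and DUSP8 (0.93) ranked first. Among the members themselves, CCNE1 and CCNE2 ran closest together (r = 0.93), followed by CCND2 with CDKN1A (0.90). CCND2 had no more than 8 counts in any BT474R library, so its course in that line was hardly measured.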

How the data were processed

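RNA of 40 libraries was analysed, 2 in each of 20 groups set by the labels. The authors deposited 1 table of raw read counts per gene. Per the labels' processing notes, reads were checked with FastQC and MultiQC, trimmed with Trim Galore 0.6.6 and counted with featureCounts on GRCh38.p13. The annotation release and the strand setting are not given in the sources used here, so reads of overlapping antisense genes may not be separated. No counts were normalised before deposit.

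From these counts, each line was fitted with edgeR 4.0.16 (limma 3.58.1, R 4.3.3) with 1 coefficient per group, after keeping genes with at least 1 count in 50% of its libraries. This left 25146 genes in BT474 and 24287 in BT474R, and 24641 in a fit of all 40 libraries that was used for comparisons between the lines. Library sizes were scaled by TMM, and quasi-likelihood F tests were adjusted by the Benjamini-Hochberg method over all genes of a fit, with a threshold of 0.05. Log2 fold changes are given with the SE of the fit. CPM are group or library values on TMM-scaled sizes, and 3 counts per library were taken as the floor of detection, which covers counting error only. Common dispersions were 0.00121 in BT474 and 0.00300 in BT474R, so that changes of a given size were resolved less well in BT474R.

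The members, the pathway lists and the tests were chosen with earlier results of these data known. All 10 members are named, and of each list CDK2, CDK4, CDK6, RB1, E2F1 and up to 2 called genes per direction with the largest change. Alternatives were DESeq2 1.42.0 (the study's tool), DESeq2's size factors, edgeR's filterByExpr, no filter, only the libraries compared, both lines in 1 fit, a replicate block, and leaving out each library in turn. Fits with a library left out kept the genes and the dispersion trend of the full fit, and a lone library was assumed to vary like the other groups. The test was checked on simulated counts for HRG against vehicle at 12 h in BT474. With 23462 genes of which 200 were changed, 93.5% were called, with 8 false calls, and the share called was 80.6% at a log2 change of 0.5 and 100% at 1 and at 2. The simulation used the dispersion trend of BT474, without a spread particular to each gene or a shift shared by replicates. Only genes of at least 1 CPM were changed. These shares therefore do not cover BT474R or genes with few counts. Lengths and coordinates came from GENCODE v44 (hg38) and sequences from RefSeq. A further gene list and a marker gene are not reported here.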

Additional observations from a re-analysis of the deposited data

Results flagged for a closer look

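Groups of 2 libraries are too small to test for a library that stands apart, so results are listed here only where the ligand effect differed between the lines by a test of the difference itself (edgeR's quasi-likelihood test over all 40 libraries, Benjamini-Hochberg adjustment over 24641 genes). The CDKN2B effect of EGF at 24 h differed by 2.33 on the log2 scale (SE 0.31, adjusted p = 2.16e-06), with EGF libraries below the vehicle in BT474 and above it in BT474R. The CCNE2 effect at 12 h was lower in BT474R for both ligands. The difference was -0.35 for EGF (SE 0.09, adjusted p = 0.0352) and -0.40 in the case of HRG (SE 0.09, adjusted p = 0.00548). The EGF call was lost with DESeq2, with no filter on low counts and when any library compared was left out. The HRG call was lost only without a vehicle library of BT474R. With vehicle, mean CCNE2 at 12 h was 27.6 CPM in BT474 and 26.5 CPM in BT474R, against 20.8 and 17.7 CPM at T0. The part of this rise in the differences was not tested. The CCND3 effect of HRG at 12 h was lower in BT474R (-0.36, SE 0.10, adjusted p = 0.0299). With a library left out in turn, this call was kept only without replicate 2 of HRG in BT474R. The common dispersion was higher in the fit of BT474R alone, and its part in these differences was not tested.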

How the results depend on the processing

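No value of a member reversed its direction and passed a test under any alternative. The counts of members called that moved by over 1.5 times are given here, with the count of the text in brackets. With DESeq2 the effects of EGF at 12 h and of HRG at 1 h between lines had 0 [1] and 1 [0], and HRG against EGF at 24 h in BT474R had 1 [2]. With both lines in 1 fit, the change of the EGF effect from 1 h to 12 h had 3 [5] in BT474 and 1 [0] in BT474R, that of HRG from 12 h to 24 h in BT474 had 0 [1], HRG in BT474R had 2 [0] at 12 h and 2 [0] at 24 h, HRG against EGF had 0 [1] at 12 h in BT474 and 1 [0] and 4 [2] at 12 h and 24 h in BT474R, and vehicle against T0 had 3 [5] at 24 h in BT474 and 4 [2] at 12 h in BT474R. With edgeR's filterByExpr, HRG at 24 h in BT474R had 1 [0]. With no filter, the effects of EGF and HRG at 24 h between lines had 2 [1] and 2 [0], EGF at 1 h in BT474R had 2 [1], the changes from 1 h to 12 h in BT474R had 3 [0] with either ligand, HRG in BT474R had 2 [0] and 1 [0] at 12 h and 24 h, HRG against EGF had 1 [0] and 2 [1] at 1 h and 12 h in BT474 and 1 [0], 2 [0] and 4 [2] in order of time in BT474R, and vehicle against T0 at 12 h in BT474R had 4 [2]. With only the libraries compared, the effects of EGF and HRG at 12 h between lines had 2 [1] and 4 [2], EGF at 1 h had 1 [3] in BT474 and 2 [1] in BT474R, the changes from 1 h to 12 h in BT474R had 3 [0] with EGF and 1 [0] with HRG, HRG against EGF had 2 [1] at 12 h in BT474 and 1 [0] and 0 [2] at 12 h and 24 h in BT474R, and vehicle against T0 at 12 h in BT474R had 5 [2]. These fits left other genes or libraries in the estimate of the spread, and the cause of each move was not tested.

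The labels do not say that a replicate number marks a shared batch or day, and the main fits did not pair the libraries by number. The correlations below do not exclude a shift shared by same-numbered libraries, since some were over 0.1. The correlation of same-numbered deviations ran from -0.0896 to 0.362 over 45 pairs of groups in BT474, with 10 over 0.1, and from -0.304 to 0.464 over 45 in BT474R, with 15 over 0.1. Between groups of 1 time point it ran from -0.0529 to 0.362 in BT474 and from -0.175 to 0.464 in BT474R. At 24 h in BT474R, replicate 2 was above replicate 1 in all 3 treatments for CCND1, CCND3, CCNE1, CDKN1A, CDKN1B, CDKN2B and CDKN2C. It was below replicate 1 in all 3 for CDKN2D, and the order was mixed for CCND2 and CCNE2. With a replicate block, the change of the EGF effect from 1 h to 12 h in BT474R had 1 member called [0], HRG at 12 h in BT474R 1 [0], and HRG against EGF at 12 h 2 [1] in BT474 and 1 [0] in BT474R. Separate replicate blocks for the time points were tried after seeing the data. With it the effects between lines had 2 [1] for EGF at 24 h and 1 [0], 4 [2] and 2 [0] for HRG in order of time, the change of the EGF effect from 1 h to 12 h in BT474R had 3 [0], HRG in BT474R had 1 [0] and 2 [0] at 12 h and 24 h, HRG against EGF had 1 [0] and 2 [1] at 1 h and 12 h in BT474 and 2 [0] and 4 [2] at 12 h and 24 h in BT474R, and vehicle against T0 in BT474R had 4 [2] and 5 [3] at 12 h and 24 h.

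Leaving out 1 library at a time gave 0 to 0 for EGF at 12 h between lines, 0 to 1, 0 to 2 and 0 to 2 for HRG between lines in order of time, 3 to 5 and 0 to 1 for the changes of the EGF effect to 12 h and to 24 h in BT474, 0 to 0, 2 to 2 and 3 to 6 for EGF in BT474R in order of time, 0 to 3 for HRG at 24 h in BT474R, 1 to 2 for HRG against EGF at 12 h in BT474 and 1 to 3 at 24 h in BT474R, and, for vehicle against T0, 2 to 4 and 2 to 3 at 12 h and 24 h in BT474 and 1 to 1 and 1 to 3 in BT474R. CCND2 was limited by its counts.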
